A study of Mus musculus with 12 samples.

Results

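The Cyp2c genes encode cytochrome P450 enzymes of the endoplasmic reticulum, and 10 of them were described here in mouse liver: Cyp2c29, Cyp2c37, Cyp2c38, Cyp2c39, Cyp2c40, Cyp2c50, Cyp2c54, Cyp2c68, Cyp2c69 and Cyp2c70. They were chosen by gene symbol, with the difference between exercised and sedentary mice already known, and are 10 of the 14 Cyp2c genes and of the 16821 genes in the files. Liver RNA came from 12 adult male C57BL/6J mice, 6 sedentary controls (Con), kept in the same room without a treadmill, and 6 mice of the chronic exercise group (Exe), which were trained by moderate treadmill running over 6 weeks. All were of this inbred strain, and no transgene or agent is named for either group. Saline perfusion preceded removal of the liver, within a day of the final session. There was 1 library per mouse, and the authors used a principal component analysis to exclude outliers.

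Cyp2c enzymes insert oxygen into fatty acids, bile acids, steroids and drugs. From arachidonic acid they form epoxides (epoxyeicosatrienoic acids) or hydroxylated products (hydroxyeicosatetraenoic acids), lipids that act on vessel tone and inflammation, and soluble epoxide hydrolase turns the epoxides into diols. In the liver the genes are expressed in hepatocytes, several of them mainly around the central vein, and the nuclear receptors CAR (Nr1i3) and PXR (Nr1i2) and the factor HNF4A are known to drive their transcription. Infection and inflammation are known to lower the expression of many hepatic P450 genes.

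The family lies in 1 cluster on chromosome 19. In RefSeq (GRCm38.p6, used for names and order only) the members follow each other as Cyp2c29, Cyp2c39, Cyp2c38, Cyp2c68, Cyp2c40, Cyp2c69, Cyp2c37, Cyp2c54, Cyp2c50 and Cyp2c70, with Cyp2c67 between Cyp2c38 and Cyp2c68. The order is by the lowest coordinate of each gene. Cyp2c39 has annotated starts on either side of that of Cyp2c38, so the order of these genes depends on the start taken. Their open reading frames (the longest ATG frame of each gene's transcripts in GENCODE M21) were 62.6% to 97.9% identical, with a median of 76.8% over 45 pairs. The most alike were Cyp2c40 and Cyp2c69 (97.9%), then Cyp2c37 and Cyp2c50 (96.1%), Cyp2c50 and Cyp2c54 (95.3%) and Cyp2c37 and Cyp2c54 (95.1%). Cyp2c68 was 97.2% identical to Cyp2c67. Reads from stretches that such copies share could be assigned to either gene, and how they were assigned is not given in the sources used here, so the split of FPKM within these groups is uncertain.

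RefSeq promoter windows were found for 9 of the 10 members, all except Cyp2c54. Cyp2c39 had a window at each of its annotated starts, and a motif in either counted for the gene. The 150 bases before the annotated start (GRCm38.p6, 5′ to 3′ on the strand of the gene) are shown for 6 members: for Cyp2c37 and Cyp2c50 and for Cyp2c40 and Cyp2c69, because these pairs varied together between mice, for Cyp2c29 as the most abundant member, and for Cyp2c70, an abundant member with no correlated partner past the threshold below. Capitals mark CAAAGTC, a core of the site type that HNF4A binds.
Cyp2c37, chr19:39992274-39992423, plus strand: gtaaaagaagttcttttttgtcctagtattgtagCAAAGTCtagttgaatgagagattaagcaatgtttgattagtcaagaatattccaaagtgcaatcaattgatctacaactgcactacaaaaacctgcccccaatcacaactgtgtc
Cyp2c50, chr19:40089529-40089678, plus strand: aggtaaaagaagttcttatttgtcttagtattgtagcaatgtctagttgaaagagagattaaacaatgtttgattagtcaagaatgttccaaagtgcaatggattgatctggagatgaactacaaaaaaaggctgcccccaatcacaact
Cyp2c40, chr19:39812815-39812964, minus strand: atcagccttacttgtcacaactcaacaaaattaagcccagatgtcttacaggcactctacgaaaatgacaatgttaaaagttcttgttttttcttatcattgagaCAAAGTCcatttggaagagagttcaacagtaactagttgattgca
Cyp2c69, chr19:39886770-39886919, minus strand: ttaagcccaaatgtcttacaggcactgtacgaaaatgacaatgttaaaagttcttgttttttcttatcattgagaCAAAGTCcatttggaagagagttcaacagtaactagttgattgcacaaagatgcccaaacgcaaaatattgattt
Cyp2c29, chr19:39286935-39287084, plus strand: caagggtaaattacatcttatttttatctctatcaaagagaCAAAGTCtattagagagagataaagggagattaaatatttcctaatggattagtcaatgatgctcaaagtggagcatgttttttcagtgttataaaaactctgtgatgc
Cyp2c70, chr19:40187287-40187436, minus strand: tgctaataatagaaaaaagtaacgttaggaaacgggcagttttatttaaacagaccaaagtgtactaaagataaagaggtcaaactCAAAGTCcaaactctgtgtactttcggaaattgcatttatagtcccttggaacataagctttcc
On either strand within 250 bases before the start, CAAAGTC was found in 7 of the 9 members with a window (Cyp2c29, Cyp2c37, Cyp2c39, Cyp2c40, Cyp2c68, Cyp2c69 and Cyp2c70), against 3.84% of 32851 RefSeq promoter windows of the same length. The first base of the match lay 116 bases before the start in Cyp2c37, 109 in Cyp2c29, 75 in Cyp2c69, 64 in Cyp2c70 and 45 in Cyp2c40. The windows of Cyp2c50 and Cyp2c38 do not hold these letters. Because the copies are related by descent, their matches are not independent: the printed windows of Cyp2c37 and Cyp2c50 were 87.3% identical and those of Cyp2c40 and Cyp2c69 78.7%. Such likeness was not limited to pairs that varied together. The most alike windows were those of Cyp2c68 and Cyp2c69 (90%), and Cyp2c38 and the upstream window of Cyp2c39 were also at 78.7%. Neither pair passed the threshold below (r = 0.61 and 0.36). The Cyp2c40 and Cyp2c69 windows hold much the same stretch at an offset, each ending at its own annotated start. Identity was counted over all 150 bases, so 78.7% understates the likeness of the stretch they share. The distances of 45 and 75 bases differ by that offset. Of the other motifs searched, GTTAAT (HNF1 type) was in Cyp2c40, Cyp2c68 and Cyp2c69 against 6.43% of windows, and TATAAA in Cyp2c29, Cyp2c38 and Cyp2c70 against 12.4%. TTGCNNAA (C/EBP type) was in Cyp2c37 and Cyp2c69 against 9.56%. TGTTTAC and TATTTAC (FOXA type) were both in Cyp2c38 and Cyp2c39, against 3.17% and 2.73%. TTCNNNGAA (STAT5 type, 7.02%) and GGTCAAAGG (0.31%) were in none of the 9. A match of letters is a description and not a site shown to be bound.

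Values are FPKM, that is, fragments divided by transcript length in kilobases and scaled by the number of mapped fragments, so levels can be compared between genes. Summed over genes, they came to 735200 to 820107 per mouse. The depth in reads is unknown, and relative depths estimated from 19 genes with stepped low values lay between 0.987 and 1.023. Across genes, Spearman's rho between mice was 0.976 to 0.990. All 13 hepatocyte markers in the files, of 14 listed, passed the filter below, and their summed FPKM was 94883 to 119946 in Con and 109887 to 132161 in Exe.

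The members spanned a wide range of abundance. Cyp2c29 (mean 604 ± 117 FPKM, SD, n = 12), Cyp2c50 (507 ± 105) and Cyp2c70 (493 ± 139) were the most abundant. Cyp2c54 (191 ± 52.5), Cyp2c37 (177 ± 54.5) and Cyp2c68 (109 ± 21.7) came next. Cyp2c40 (11.1 ± 5.26), Cyp2c38 (8.04 ± 1.73), Cyp2c69 (2.88 ± 1.75) and Cyp2c39 (0.502 ± 0.102) were lower and differed widely among themselves. By mean FPKM, Cyp2c29 ranked 157 among the 16821 genes and Cyp2c39 ranked 11267.

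Neighbours in this order, which was taken from the means of the same 12 mice, were compared within mice. The test was a two-sided exact sign-flip permutation test of the difference in log2 FPKM, adjusted by Benjamini-Hochberg over 9 pairs of neighbours. Because the same values set the order, the direction of each step was given beforehand. The p-values set the size of a step against its spread between mice, and do not test the order itself. Cyp2c29 exceeded Cyp2c50 by 0.26 on the log2 scale, in 11 of 12 mice (adjusted p = 0.00366, exact). Cyp2c50 and Cyp2c70 did not differ beyond their spread (mean log2 difference 0.06, SD 0.30, adjusted p = 0.470, exact permutation test), and neither did Cyp2c54 and Cyp2c37 (0.12, SD 0.20, adjusted p = 0.0609) or Cyp2c40 and Cyp2c38 (0.35, SD 0.67, adjusted p = 0.110). The other 5 steps held in 12 of 12 mice, each at the smallest p the test allows (0.000488, adjusted p = 0.000879). The widest of them lay between Cyp2c68 and Cyp2c40, 3.41 on the log2 scale.

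**Figure D1:**
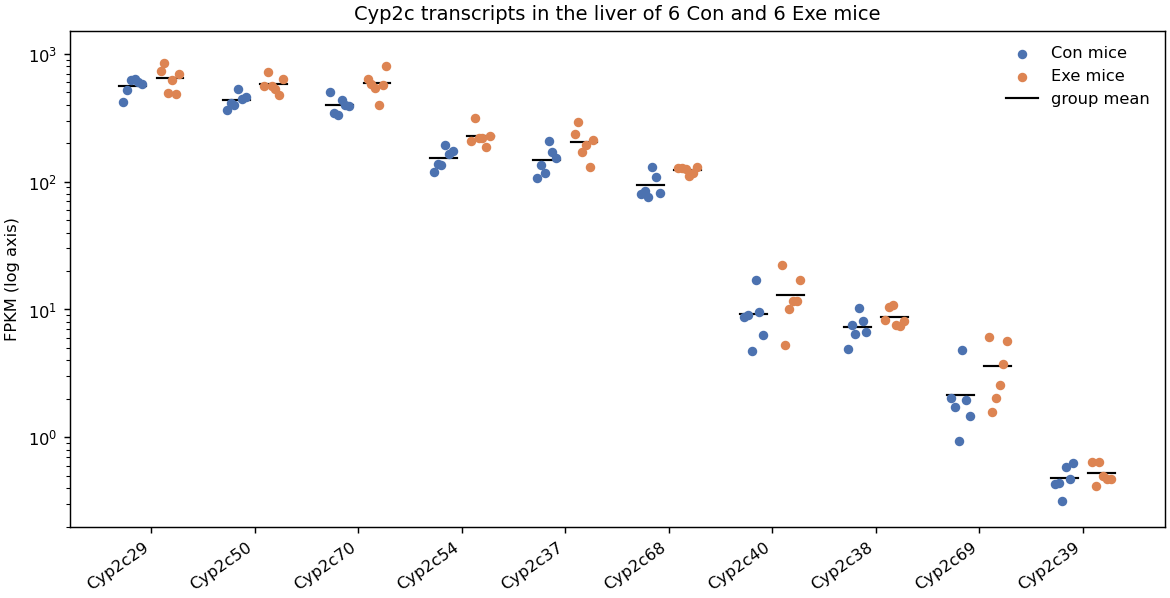
FPKM of the 10 Cyp2c genes on a log axis, 1 point per mouse (Con left, Exe right), with the group means as bars. Mean levels run from 604 FPKM for Cyp2c29 to 0.502 for Cyp2c39, with the widest step between Cyp2c68 and Cyp2c40, and the Con and Exe points overlap for every gene.

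The summed FPKM of the 10 genes was 1812 ± 207 in Con (SD, n = 6, 1608 to 2165) and 2396 ± 381 in Exe (1985 to 2908), which was 0.229% ± 0.0265 and 0.311% ± 0.0534 of all FPKM. The Exe minus Con difference was among the results known when the members were chosen, so the values of the groups are given as a description, without a test of the members. On log2(FPKM + 1), limma fitted 10241 genes with at least 1 FPKM in at least 6 mice, and 9 of the 10 members passed this filter. Cyp2c39 did not. At a Benjamini-Hochberg adjusted p of 0.05, 0 of the 9 were called, beside 0% of all genes tested, the lowest adjusted p of any gene being 0.519. At an unadjusted p of 0.05, 5 of the 9 were higher in Exe and 0 lower, beside 4.27% and 1.94% of all genes. For 0 of the 10 did every Exe mouse lie above every Con mouse, which held for 0.234% of genes tested. All 9 had positive differences, with a median of 0.43, and the median over all genes tested was 0.02. On the scale used, differences of genes with low FPKM are understated.

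Cyp2c54 and Cyp2c50, epoxygenases of arachidonic and linoleic acid, are neighbours in the cluster. Cyp2c54 read 119, 138, 135, 192, 165 and 175 FPKM in Con 1 to Con 6, and 207, 315, 219, 218, 188 and 225 in Exe 1 to Exe 6. The Exe value was above all Con values in 5 of 6 mice, and only Exe 5, at 187.6, lay below the highest control, Con 4 at 192.0. The difference, Exe minus Con, was 0.57 on the log2 scale (standard error 0.13), and the ratio of mean FPKM was 1.48. Cyp2c50 read 363, 411, 395, 530, 440 and 461 FPKM in the Con mice, and 558, 725, 559, 526, 475 and 639 in the Exe mice. Con 1 was the lowest and Exe 2 the highest for both genes, and 4 Exe mice exceeded all controls for Cyp2c50. Its log2 difference was 0.42 (standard error 0.11).

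Cyp2c70 differs from the rest in its known substrate: it makes muricholic acids, the bile acids typical of mice and rats. It read 502, 343, 333, 438, 394 and 387 FPKM in the Con mice and 639, 578, 536, 395, 570 and 802 in the Exe mice. Here Con 1 was the highest control, whereas it was the lowest control for Cyp2c29, Cyp2c37, Cyp2c38, Cyp2c50 and Cyp2c54, and Exe 4 was the only exercised mouse among the controls. The log2 difference was 0.54 (standard error 0.15) and the ratio of means 1.47.

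Cyp2c29 and Cyp2c37 oxidise arachidonic acid, Cyp2c29 mainly to epoxides and Cyp2c37 mainly to hydroxylated products. Cyp2c29 read 421, 524, 624, 634, 601 and 575 FPKM in the Con mice and 729, 850, 497, 619, 483 and 690 in the Exe mice. The groups overlapped widely: 3 Exe mice were above all controls, and Exe 3 and Exe 5 were below the mean of the controls, 563 FPKM. Its log2 difference of 0.18 (standard error 0.14) was the smallest of the 9, and it was 0.093 without Exe 2 and 0.098 without Con 1. Cyp2c37 read 106, 135, 117, 210, 170 and 153 FPKM in the Con mice and 234, 293, 171, 195, 130 and 212 in the Exe mice, a log2 difference of 0.46 (standard error 0.19). Con 1 was again the lowest of all mice, and Exe 5 the lowest of the exercised mice.

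Cyp2c68 has been less studied. It read 80.5, 84.5, 76.2, 129, 108 and 82.0 FPKM in the Con mice and 129, 129, 126, 112, 117 and 130 in the Exe mice. The Exe mice lay close together (coefficient of variation 6.06%, against 22.3% in Con), above all controls except Con 4, which reached 129.4. The log2 difference was 0.42 (standard error 0.11). Cyp2c67, its near copy and not among the 10, read 108 to 200 FPKM in Con and 167 to 227 in Exe (log2 difference 0.37, limma adjusted p = 0.793).

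Among the low genes, Cyp2c40 (hydroxylated products of arachidonic acid) and Cyp2c69 had the widest spread. Cyp2c40 read 8.68, 9.08, 4.73, 17.1, 9.48 and 6.36 FPKM in the Con mice and 22.2, 5.31, 10.1, 11.6, 11.6 and 17.0 in the Exe mice. Cyp2c69 read 2.02, 1.72, 0.93, 4.79, 1.96 and 1.47 in the Con mice and 6.13, 1.59, 2.02, 2.57, 3.73 and 5.65 in the Exe mice. Exe 1 was the highest and Con 3 the lowest for both genes, and Exe 2, the highest mouse for Cyp2c29, Cyp2c37, Cyp2c50 and Cyp2c54, was the lowest Exe mouse for both. Their log2 differences were 0.43 (standard error 0.30) and 0.54 (0.28), and that of Cyp2c40 was 0.26 without Exe 1 and 0.28 without Con 3. Cyp2c38 and Cyp2c39 form epoxides from arachidonic acid, and Cyp2c39 is also known to hydroxylate retinoic acid. Cyp2c38 read 4.92 to 10.2 FPKM in Con and 7.37 to 10.8 in Exe (log2 difference 0.24, standard error 0.14, and 0.15 without Con 1), and Cyp2c39 0.32 to 0.63 and 0.42 to 0.64 (0.04, standard error 0.06). For 5 members at least 4 of the 6 Exe mice lay at or below the highest control: Cyp2c38, Cyp2c39, Cyp2c40, Cyp2c68 and Cyp2c69.

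**Figure D2:**
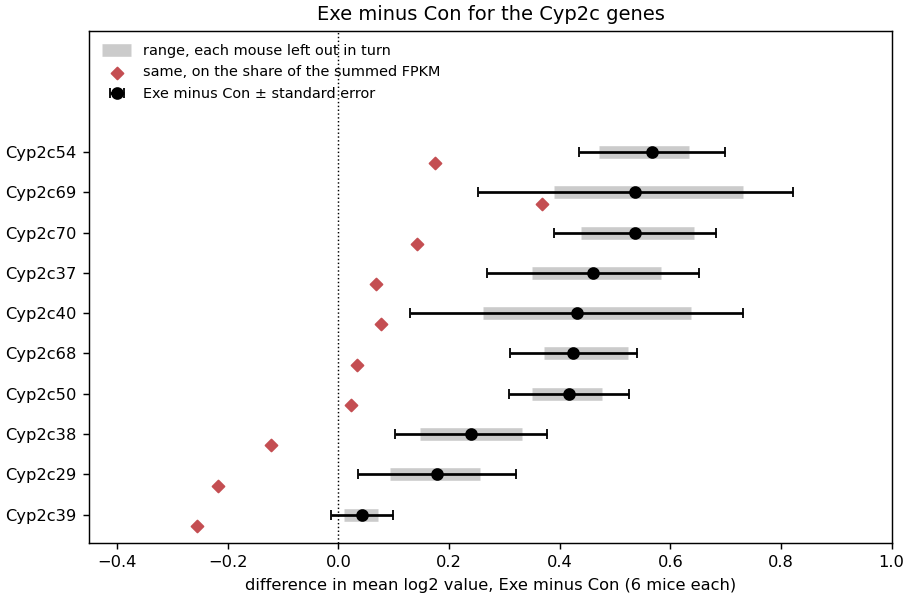
Exe minus Con in mean log2(FPKM + 1) for the 10 genes (points, with the standard error, n = 6 per group) and the range when each mouse is left out in turn (grey bars). Diamonds give Exe minus Con in the mean log2 share of the summed FPKM, taken without a pseudocount, so for low genes they differ from the points in that too. All 10 points lie above 0, from 0.04 for Cyp2c39 to 0.57 for Cyp2c54, whereas on the share scale Cyp2c29, Cyp2c38 and Cyp2c39 lie below 0.

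The composition of the family was also compared. Cyp2c29 made up 31.1% ± 3.49 of the summed FPKM in Con and 26.8% ± 2.77 in Exe (SD, n = 6), Cyp2c70 22.3% ± 4.42 and 24.5% ± 4.35, and Cyp2c50 23.9% ± 0.998 and 24.3% ± 1.49. This scale removes a change shared by all members and takes no pseudocount, which also matters for the low genes. On it the log2 differences of Cyp2c29, Cyp2c38 and Cyp2c39 were negative (-0.22, -0.12 and -0.25). The others were positive, from 0.02 (Cyp2c50) to 0.37 (Cyp2c69), with Cyp2c54 at 0.17 and Cyp2c70 at 0.14. The ratio of Cyp2c50 to Cyp2c54 stayed within 2.30 to 3.05 over the 12 mice, and that of Cyp2c40 to Cyp2c69 within 3.01 to 5.28. The ratio of Cyp2c29 to Cyp2c70 ranged from 0.839 in Con 1 to 1.87 in Con 3.

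The question of how the members vary together between mice of the same group does not use the Exe minus Con contrast. Within groups, the SD of log2(FPKM + 1) was 0.20 (Cyp2c50) to 0.60 (Cyp2c40) for the 9 members that passed the filter, against a median of 0.14 over genes tested. Correlations were taken over 12 mice on values centred on the group mean, with permutations within groups and adjustment over 45 pairs. Of these, 40 were positive, 12 passed an adjusted p of 0.05 by Pearson's r, all positive, and 5 by Spearman's rho.

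Cyp2c40 and Cyp2c69 had the highest correlation (r = 0.945, rho = 0.881, adjusted p = 0.00045, permutation test), at 0.972 within Con and 0.925 within Exe. Among 10240 genes, each was the most like the other. Cyp2c50 and Cyp2c54 followed (r = 0.936, rho = 0.930, adjusted p = 0.00045, permutation test), and Cyp2c37 went with both, at r = 0.909 for Cyp2c50 (rho = 0.860, adjusted p = 0.00465) and 0.880 for Cyp2c54 (rho = 0.867, adjusted p = 0.00709). Without the 2 mice farthest from the median of the first gene, these 4 values were 0.920, 0.849, 0.841 and 0.832. These 4 pairs stayed past the threshold under all 16 alternatives, and the other 8 pairs lost the call under at least 2 of them. Cyp2c29 was also correlated with Cyp2c37 (r = 0.841, rho = 0.804, adjusted p = 0.00999, and 0.704 without the 2 farthest mice). The remaining pairs called by Pearson's r were Cyp2c29 with Cyp2c50 and Cyp2c54, Cyp2c38 with Cyp2c50, Cyp2c54 and Cyp2c68, and Cyp2c68 with Cyp2c37 and Cyp2c50, at r between 0.653 and 0.764. Ranked by r among the 10240 genes, the closest member came at 1 for Cyp2c54, 2 for Cyp2c50 and 7 for Cyp2c37. It came only at 45 for Cyp2c68, 71 for Cyp2c38, 84 for Cyp2c29 and 374 for Cyp2c70, so many genes outside the family were more like these. The share of all gene pairs past the threshold was not computed.

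Cyp2c40 and Cyp2c50, by contrast, had an r of 0.03 over the 12 mice, at 0.610 within Con and -0.414 within Exe. For Cyp2c37 with Cyp2c40 it was 0.188, and 0.721 without Exe 2 and Exe 5, the mice farthest from the median of Cyp2c37. The low values over all mice therefore do not show that these genes vary apart in each group. Cyp2c70 and Cyp2c39 had no pair past the threshold. The highest r was 0.586 for Cyp2c70, with Cyp2c69 (adjusted p = 0.165, permutation test), and 0.514 for Cyp2c39, with Cyp2c40 (adjusted p = 0.251). Whether any 2 of these correlations differ from each other was not tested. The number of pairs past the threshold was 6 without Con 1 and Exe 5, the 2 mice with the highest acute-phase level described below, and it ran from 4 (without Exe 5) to 14 (without Exe 3) when 1 mouse at a time was left out.

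**Figure D3:**
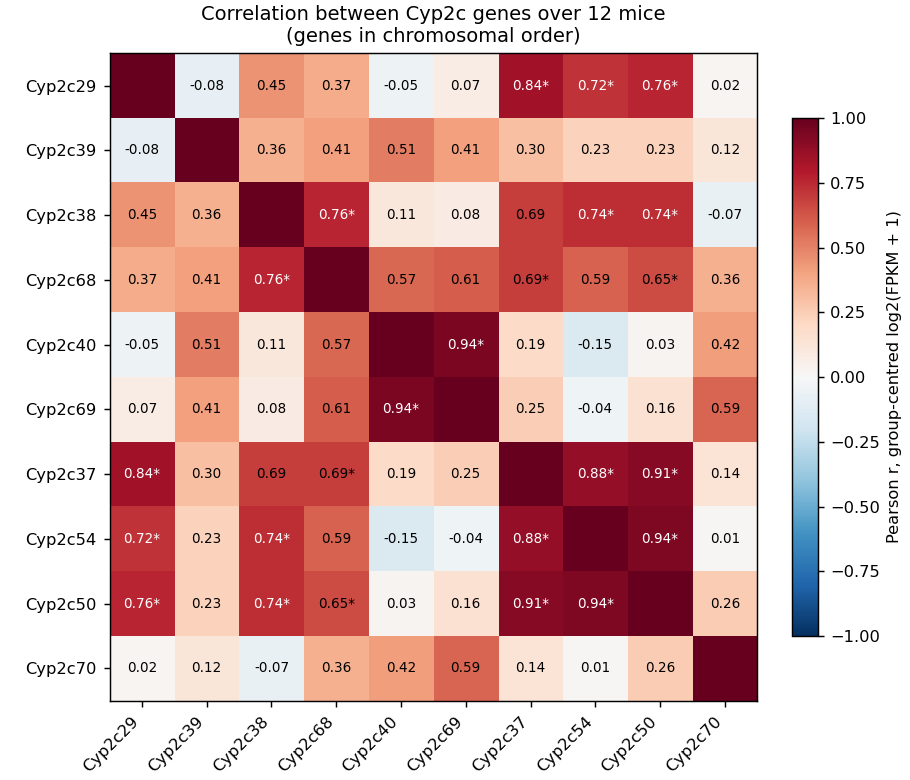
Pearson r of group-centred log2(FPKM + 1) between the Cyp2c genes over 12 mice, in chromosomal order; asterisks mark pairs at an adjusted p of 0.05 or less. Cyp2c37, Cyp2c54 and Cyp2c50 form 1 block of high values (0.88 to 0.94), Cyp2c40 and Cyp2c69 another (0.94), and the columns of Cyp2c39 and Cyp2c70 have no asterisk.

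The pairs with the most alike reading frames were also among those with the highest correlations. The 7 pairs with at least 90% identity had a median r of 0.880 and the 38 other pairs one of 0.276 (Spearman's rho between identity and r over the 45 pairs 0.599, a description, since pairs share genes and libraries). Of the 7, the 3 lowest were Cyp2c38 with Cyp2c39 (94.2% identical, r = 0.36), Cyp2c40 with Cyp2c68 (92.6%, r = 0.57) and Cyp2c68 with Cyp2c69 (91.2%, r = 0.61). Because reads can be shared between near copies, correlation of RNA levels and shared assignment of reads cannot be told apart for these pairs.

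**Figure D4:**
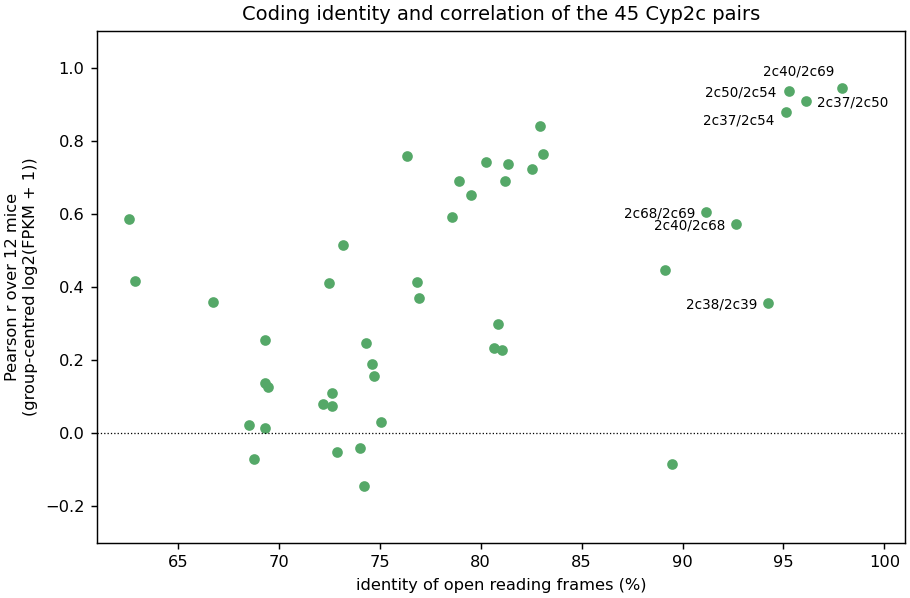
Pearson r over 12 mice (vertical) against the identity of open reading frames in percent (horizontal) for the 45 pairs of Cyp2c genes; the 7 pairs at 90% or more are named. Of these, 4 lie at r of 0.88 or more and 3 between 0.36 and 0.61.

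Each member was then set against 4 measures of the same livers over the 12 mice: an acute-phase index (mean log2(FPKM + 1) of 18 acute-phase genes such as Saa1, Orm2 and Hp, which the liver raises in inflammation), a pericentral index of 15 genes, Nr1i3 and Nr1i2. These are 36 relations, adjusted together. The acute-phase index itself ranged from 7.54 to 10.3 in Con and 7.87 to 10.3 in Exe, the highest mice being Con 1 and Exe 5. Of the 18 genes 16.7% were higher in Exe, beside 57.5% of all genes tested, and 15 were lower, none past an unadjusted p of 0.05 in limma.

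Cyp2c37 was lower where the acute-phase index was higher (r = -0.872, rho = -0.853, adjusted p = 0.0259 and 0.0493, permutation test), and this was the only one of the 36 relations past the threshold. The value was -0.925 within Con, -0.835 within Exe and -0.760 without the 2 mice farthest from the median of the index. The adjusted p rose above 0.05 without Con 1, Con 2, Con 4, Con 5 or Exe 5, up to 0.161, with r between -0.927 and -0.816 as each mouse was left out. Cyp2c54 (r = -0.746), Cyp2c50 (-0.720), Cyp2c68 (-0.714), Cyp2c29 (-0.708) and Cyp2c38 (-0.659) had values of the same sign that did not pass (adjusted p = 0.107 to 0.131, permutation test). Within Exe alone, r was -0.10 for Cyp2c68 and -0.24 for Cyp2c38, against -0.94 and -0.90 within Con. For Cyp2c40 (-0.25), Cyp2c69 (-0.23) and Cyp2c70 (0.10) no relation was detected with 12 mice, and the sign of each changed when a single mouse was left out. Their values also differed by group: -0.67, -0.68 and -0.05 within Con, and 0.17, 0.24 and 0.23 within Exe. Whether the groups or the genes differ in this was not tested.

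**Figure D5:**
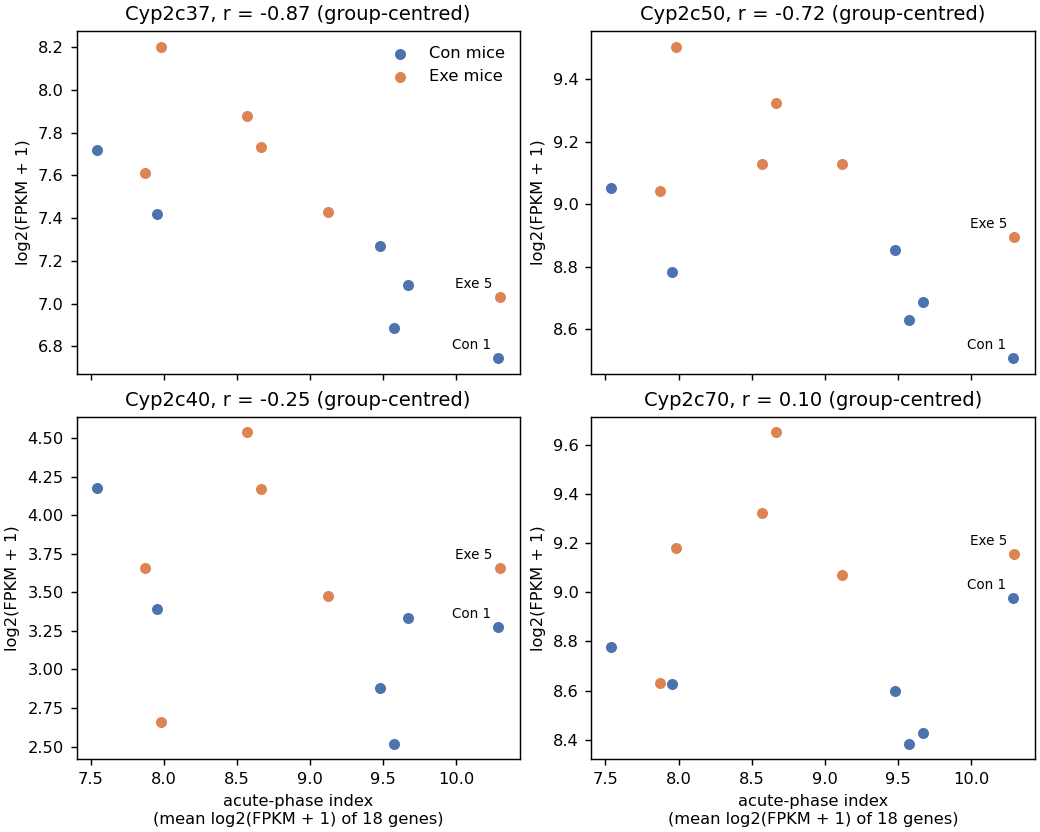
log2(FPKM + 1) of Cyp2c37, Cyp2c50, Cyp2c40 and Cyp2c70 against the acute-phase index in 12 mice (Con and Exe by colour; Con 1 and Exe 5 named); r is over group-centred values. Cyp2c37 and Cyp2c50 fall along the index (r of -0.87 and -0.72), with Con 1 and Exe 5 lowest in their groups. Over the 12 mice Cyp2c40 and Cyp2c70 do not (-0.25 and 0.10), but Cyp2c40 had -0.67 within Con and 0.17 within Exe.

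With the acute-phase index as a covariate, the log2 difference between Exe and Con was 0.35 for Cyp2c37 (0.46 without it), 0.50 for Cyp2c54 (0.57), 0.37 for Cyp2c50 (0.42), 0.11 for Cyp2c29 (0.18) and 0.55 for Cyp2c70 (0.54). Without Con 1 and Exe 5 it was 0.49 for Cyp2c37, 0.55 for Cyp2c54, 0.42 for Cyp2c50, 0.17 for Cyp2c29 and 0.61 for Cyp2c70. Markers of other cells were set beside these values as summed FPKM. Kupffer cell markers (9 of 9 passed the filter) were 298 to 551 in Con and 216 to 494 in Exe, with 9 of 9 lower in Exe and 0 past an unadjusted p of 0.05. Among all genes tested, 57.5% were higher in Exe, and 1.94% were lower past that p in limma. Red blood cell genes were 235 to 903 and 400 to 1290, bile duct markers 27.2 to 75.0 and 25.4 to 76.8, and pancreatic acinar genes 8.60 to 17.0 and 13.1 to 36.0. Exe 5 was the highest mouse for the red blood cell, bile duct and acinar sums, and every other mouse was at 17.0 or less for the acinar sum. For the bile duct sum its lead was small (76.8, against 75.0 in Con 3). Exe 5 was also the highest for the lymphocyte and neutrophil sum, at 55.6, with Exe 3 at 50.8. The part of these cells in the differences was not tested, and in bulk tissue fewer cells of a type and less RNA per cell cannot be told apart.

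None of the other measures passed over the 36 relations. With the pericentral index, the largest r were 0.747 for Cyp2c37 and 0.654 for Cyp2c29 (adjusted p = 0.107 and 0.131, permutation test), at 0.456 and 0.426 without the 2 farthest mice. With Nr1i3, the receptor CAR, r was 0.699 for Cyp2c29 (adjusted p = 0.131) and 0.569 for Cyp2c37 (adjusted p = 0.185, permutation test). Without the 2 farthest mice, Exe 2 and Exe 3, these were 0.429 and 0.434. With Nr1i2, the receptor PXR, r lay between -0.28 and 0.30 for all 9 members.

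The genes around the family were counted in the fit over all genes, where 0 genes of any list passed an adjusted p of 0.05. Over all genes tested 57.5% were higher in Exe, and 4.27% were higher and 1.94% lower at an unadjusted p of 0.05. The counts of each list stand beside these shares, and no list was tested as a set. Exe exceeded Con for 2 of the 3 other Cyp2c genes that were tested, and 1 was lower, with Cyp2c67 past an unadjusted p of 0.05. Cyp2c23 (also known as Cyp2c44), an epoxygenase, read 263 ± 46.3 FPKM in Con and 273 ± 31.5 in Exe (SD, n = 6), and Cyp2c55 4.22 ± 1.95 and 2.68 ± 0.794 (log2 difference -0.43, limma adjusted p = 0.849). Cyp2c65 failed the filter and was listed at 0 in 9 of the 12 mice. Of the Cyp2j epoxygenases 3 were tested, with log2 differences of -0.16 to 0.03. The epoxide hydrolases Ephx1 and Ephx2 differed by -0.04 and -0.00098. Of the electron donors of microsomal P450 enzymes, 4 of 6 were higher and 2 lower. Por, the reductase that feeds electrons to P450 enzymes, read 107 ± 18.4 FPKM in Con and 154 ± 61.4 in Exe (log2 difference 0.43, limma adjusted p = 0.849).

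Of 21 transcription factors known to act on Cyp2c genes, 10 were higher and 11 lower in Exe, and 0 passed an unadjusted p of 0.05. Nr1i3 read 80.2 ± 11.2 FPKM in Con and 104 ± 30.1 in Exe (log2 difference 0.33, limma adjusted p = 0.833). Nr1i2 (-0.0040) and Hnf4a (-0.12) gave smaller differences. Of 15 other genes that CAR and PXR are known to induce, 8 were higher and 7 lower, 0 past an unadjusted p of 0.05, with the glutathione transferases Gsta2 (0.45) and Gstm3 (0.36) first by p.

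In the bile acid pathway of Cyp2c70, 8 of 12 genes were higher (66.7%, beside 57.5% of all genes) and 4 lower, and 3 passed an unadjusted p of 0.05 (beside 4.27% of all genes), all higher in Exe. They were Acox2, the peroxisomal oxidase of the bile acid side chain (log2 difference 0.21), Akr1d1, a reductase of the steroid ring (0.35), and Baat, which joins bile acids to amino acids (0.13), each at a limma adjusted p of 0.793. Of 10 genes for the release and re-esterification of arachidonic acid, 5 were higher and 5 lower, with Pla2g12a, a secreted phospholipase, past an unadjusted p of 0.05 and lower in Exe (-0.45). Of 17 genes of other arachidonic acid routes, 9 were higher and 8 lower. The fatty acid omega-hydroxylases Cyp4a14 (2.13, limma adjusted p = 0.657) and Cyp4a10 (1.17, adjusted p = 0.581) were the 2 past an unadjusted p of 0.05. By DESeq the paper calls both upregulated in Exe. Among 15 pericentral genes, 9 were higher and 6 lower, and Oat was lower at an unadjusted p of 0.05 (-0.27). Among 14 periportal genes, 9 were higher and 5 lower, and Cps1 was higher (0.29). The median log2 difference was 0.03 for the pericentral and 0.06 for the periportal list.

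The 3 genes outside the family whose group-centred values were most like each member were also listed, among 10240 genes and over 12 mice, as a description. For Cyp2c29 they were Cbr1 (r = 0.945), Rad1 (0.934) and Retsat (0.933). For Cyp2c37 they were 2310039H08Rik (0.972), Lonp1, a mitochondrial protease (0.951), and Atp5d, a subunit of ATP synthase. 2310039H08Rik was among the first 3 for Cyp2c50 (0.943) and Cyp2c54 (0.916) too, and so was Cox5a, a subunit of cytochrome c oxidase (0.924 and 0.919). The third was Chchd10 for Cyp2c50 (0.900), and Ern1, a sensor of unfolded proteins, came first for Cyp2c54 (0.930). Cyp2c40 and Cyp2c69 shared Dct (0.860 and 0.884) and Cmc2 (0.834 and 0.825), beside Gtf2h5 (0.866) for Cyp2c40 and Snx3 (0.878) for Cyp2c69. Cyp2c38 had Abhd17c (0.923), Pecam1 (0.918) and Ncbp3 (0.917), and Cyp2c68 had Ormdl2 (0.881), Commd1 (0.879) and Atp5g3 (0.866). Cyp2c70 had Smarca4 (0.904), Rmdn3 (0.879) and Ntpcr (0.879). The genes listed for Cyp2c29, Cyp2c38, Cyp2c68 and Cyp2c70 were listed for no other member.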

How the data were processed

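RNA was extracted with TRIzol from the livers of 6 Con and 6 Exe mice and sequenced on the DNBseq platform. Clean reads were aligned by the authors with HISAT to GRCm39, and the deposited values are FPKM rounded to 2 decimals. Their processing notes also name Bowtie2 and mm10, with no role given. The tool and annotation behind the FPKM, and how reads that fit several copies were counted, are not given in the sources used here. The authors' own test was DESeq, but FPKM are not counts, so tools that need counts were not used. With DESeq the paper reports differentially expressed genes at a Q-value of 0.05 and a log2 fold change beyond 1. The limma fit to FPKM called 0 genes at an adjusted p of 0.05, so the outcomes differ, and the reason was not tested. As a library per mouse gives 1 value per gene, the spread between mice is the only error, and nothing says whether mice shared cages, so p-values measure the spread between these samples.

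Values were analysed as log2(FPKM + 1), with a pseudocount of 1. All genes with at least 1 FPKM in at least 6 mice were fitted in R 4.3.3 with limma 3.58.1 (lmFit, then eBayes with the trend option). P-values were adjusted by Benjamini-Hochberg, and the thresholds followed the study, adjusted p 0.05 with a log2 fold change beyond 1 in either direction. The fit and the permutation test were tested on simulated data. Correlations used 100000 two-sided permutations within groups. The rest was done in Python 3.11.15 (Biopython 1.88, matplotlib 3.10.9, scipy 1.17.1, numpy 2.4.6 and pandas 2.3.3). The members and gene lists were chosen with earlier results of these data known.

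Genes were named by a rule: the members and other Cyp2c genes, the genes of each pathway list with the smallest unadjusted p (at most 3), Nr1i2, Nr1i3, Hnf4a, Por, Ephx1, Ephx2, Cyp4a10 and Cyp4a14, and the 3 genes most like each member. Saa1 and Hp are named only as examples of the acute-phase list. The other marker lists were endothelial (3 of 7 genes higher in Exe, 4 lower), stellate and fibroblast (2 of 7 higher, 5 lower) and lymphocyte and neutrophil (4 of 4 tested higher, 1 past an unadjusted p of 0.05). Of the hepatocyte list 11 of 13 were higher, 3 of them past an unadjusted p of 0.05, and 1 was lower past it. Of the red blood cell list 4 of 5 were higher, 1 past it, and both bile duct genes tested were lower. Of 14 acinar genes 1 passed the filter. Beside these counts, 57.5% of all genes tested were higher, with 4.27% higher and 1.94% lower past an unadjusted p of 0.05 in limma.

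Alternatives were quantile normalization, no filter, at least 5 FPKM, a pseudocount of 0.1, robust variance moderation, a replicate block, each mouse left out, an acute-phase covariate, log2 ratios of group means, shares of the family sum and, for correlations, no centring. Chosen after seeing the data were the fit without Con 1 and Exe 5 and an index without its 4 most variable genes. The study's protein, acetylation and metabolite data were not used here. The paper names Cyp2c54 among its differentially expressed proteins, and its text gives no direction for it.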

Additional observations from a re-analysis of the deposited data

Results flagged for a closer look

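Of 34 sets of 6 mice (each Cyp2c gene, summed level and measure in each group), 4 held a mouse whose gap to its nearest neighbour, as a share of the range of its group, was above Dixon's critical value at 95%. Chance would give about 1.7. Cyp2c54 in Exe 2 was at 315.08 FPKM, with the next Exe mouse at 225.5, and without Exe 2 its log2 difference between Exe and Con was 0.47. Cyp2c69 in Con 4 was at 4.79 FPKM, with the next Con mouse at 2.02, and without Con 4 its log2 difference was 0.73. Cyp2c65, which is not one of the 10 genes, was at 0.98 FPKM in Con 6 and at 0.38 in Exe 4, and at 0.03 or less in the other mice.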

How the results depend on the processing

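For the differences between Exe and Con of the 10 Cyp2c genes, all 198 alternative values outside the share scale kept their sign and moved by less than 1 within-group SD, but some moved by over 1.5 times. These were Cyp2c29 (0.18), at 0.093 without Exe 2, 0.098 without Con 1 and 0.11 with the acute-phase covariate, Cyp2c38 (0.24), at 0.15 without Con 1, and Cyp2c40 (0.43), at 0.26 without Exe 1 and 0.28 without Con 3. Cyp2c39 (0.043) was at 0.011 without Con 3, 0.021 without Exe 1 or Exe 3, 0.071 without Con 6, 0.11 with a pseudocount of 0.1 and 0.12 as a ratio of means. On the log2 share of the family sum, Cyp2c29, Cyp2c38 and Cyp2c39 turned to -0.22, -0.12 and -0.25, and Cyp2c37, Cyp2c40, Cyp2c50, Cyp2c54, Cyp2c68, Cyp2c69 and Cyp2c70 were 0.0673, 0.0769, 0.0224, 0.174, 0.0330, 0.368 and 0.141. That scale removes what the members share, and it takes no pseudocount. With no filter, 1 gene reached an adjusted p of 0.05. Genes at an unadjusted p of 0.05 (636) ran from 418 (without Exe 2) to 905 (without Exe 5) with each mouse left out, and were 898 with no filter. Of the 636, 68.7% were higher in Exe, and of the 618 under quantile normalization 56.8%. The replicate numbers did not pair the mice (1 of 6 pairs over 0.1, -0.478 to 0.165, own number best in 2 of 12). With the replicate block 567 genes had an unadjusted p of 0.05, 0 an adjusted p of 0.05, and the members' differences were the same.

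Pairs of members past the threshold (12) ran from 4 to 14 with each mouse left out, were 6 without Con 1 and Exe 5, and 17 with no centring. Relations with the 4 measures (1) ran from 0 to 6, and were 0 with no centring. The r with the acute-phase index ran from -0.538 to 0.0422 for Cyp2c40, with the positive value without Con 4, from -0.408 to 0.131 for Cyp2c69, likewise, and from -0.142 (without Exe 4) to 0.239 for Cyp2c70, at -0.0926 without Con 1 and -0.0617 with no centring. Neighbours in the level order past the threshold (6) were 6 to 7 with each mouse left out, 6 in Con alone and 0 in Exe alone, where the smallest p 6 mice allow is 0.03125. The cause was not tested.

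With 6 mice per group, the standard errors of the 9 tested members, 0.11 to 0.30, limit what the differences show. The depth in reads is unknown, near copies may share reads, and Cyp2c39 and Cyp2c65 lie under the filter.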
